A study of Homo sapiens with 10 samples.

Results

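In RPE-1 cells, 8 genes with few reads in DMSO had more in SFN: BAAT, ADORA2A, DNAH10, CHD5, MSH4, WNT2B, LRRC66 and CSPG5. These 8 of the 28380 genes measured were chosen by their counts in DMSO and SFN, as genes near zero in DMSO and higher in SFN, and by their place behind an expressed gene. Their difference between SFN and DMSO is therefore the choice itself and is given as a description, without a test. RPE-1 is an established human line of immortalized retinal pigment epithelial cells. The cells received either the vehicle DMSO or 25 µM SFN for 4 h, with 5 replicates in each group. SFN (sulforaphane) is an electrophilic isothiocyanate from cruciferous vegetables that is known for activating the antioxidant transcription factor NRF2. RNA was measured with Lexogen QuantSeq libraries, which are primed with oligo(dT), so that reads gather near the polyadenylated 3′ ends of transcripts.

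The members are known from several tissues, among them liver, neural tissue and the germ line. A human gene normally ends where the cleavage and polyadenylation complex recognizes a hexamer such as AATAAA and cuts the nascent RNA. The polymerase runs on past the cut until the exonuclease XRN2 and its partners release it. When release is late, transcription can continue into the next gene on the same strand, and heat, osmotic and oxidative stress are known to lengthen such downstream transcripts. A count per gene holds no information on where a transcript began. Transcripts started at a member's own promoter and transcripts that ran on from the gene before it cannot be told apart in these data.

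The total count was 15689294 to 20666692 (median 16699666) per DMSO library. It was 12375860 to 17308706 (median 14408929) per SFN library. Levels are given as raw counts and as CPM, the counts relative to a library size that TMM scaling makes comparable between libraries. A single read was worth 0.0456 to 0.0623 CPM in DMSO and 0.0596 to 0.0863 CPM in SFN, so the members were measured near the depth limit. A count of 0 allows up to 3 reads, which is at most 0.187 CPM in a DMSO library and 0.259 CPM in an SFN library. DMSO replicate 1 stood apart, with a TMM factor of 0.886 where the other DMSO libraries had 1.06 to 1.08, and results are also given without it. Of 10 retinal pigment epithelium markers in the table, 6 were tested and 4 were under 1 CPM in DMSO, among them RPE65 with 0 counts and RLBP1 with 4 counts over the 5 libraries. KRT8, KRT18, MITF, BEST1 and OTX2 were at 383 ± 85.8, 196 ± 27.6, 50.8 ± 4.95, 18.8 ± 13.7 and 14.0 ± 2.14 CPM in DMSO (SD, n = 5). Of 13378 genes tested, 1214 (9.07%) were significantly increased and 1862 (13.9%) decreased in SFN compared to DMSO, at an adjusted p under 0.05 in the quasi-likelihood test of edgeR. Of the markers, MITF (log2 fold change -1.12) and OTX2 (-0.64), transcription factors of this epithelium, were among the decreased genes (adjusted p = 5.3e-05 and 0.0029 in edgeR). The other 4 markers tested were not called and had positive values, with 1.17 for BEST1, 0.27 for KRT18, 0.23 for KRT8 and 0.14 for PMEL, and the median over the 6 was 0.18. BEST1 was at 107 CPM in SFN replicate 2 and at 19.4 to 33.4 CPM in the other SFN libraries. The labels do not say that replicates were separate cultures, and the study's methods give 5 replicates of a set cell number per treatment, call its experimental replicates independent in general, and mention a correction for repeated measures without defining them. The p-values measure only the spread between these libraries. In bulk RNA, fewer cells of a kind and less RNA per cell cannot be told apart.

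All 8 genes began within 5 kb of the annotated end of a gene on the same strand with at least 10 CPM in DMSO (GENCODE 44, GRCh38). The distance ran from 139 bases, between SPECC1L and ADORA2A, to 4698 bases, between RPL22 and CHD5. The drawing of the positions places the others between these.

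The ends of the neighbours and of the members themselves were read from the genome, because the hexamer directs the cut that sets the 3′ end of the RNA. AATAAA or its common variant ATTAAA was sought on the sense strand in the last 50 bases of each gene. Among the neighbours, 5 of 8 held one and SPECC1L, CTTNBP2NL and SMARCC1 did not. Among the members, 7 of 8 held one and DNAH10 did not. The same was true of 75.6% of protein-coding genes with at least 10 CPM in DMSO and of 72.8% of protein-coding genes under 1 CPM. The windows below run 5′ to 3′ with the hexamer nearest the gene's end in capitals, and no match says only that these letters are not in the window. For LRRC66 both the neighbour and the member are shown, as an example of a pair with a hexamer at each end, and its window also holds AATAAA in lower case before the marked variant.
SGCB (before LRRC66), chr4:52020708-52020737, minus strand: gcttctgtttacAATAAAaattctgtaaat
LRRC66, chr4:51993652-51993681, minus strand: ttttagaataaagtgtaaATTAAAaatcaa
MRPL50 (before BAAT), chr9:101387636-101387665, minus strand: taaactgcataaAATAAActcctccctcct
ATP6V0A2 (before DNAH10), chr12:123761720-123761749, plus strand: ttgctaatgacaAATAAAtatatctatatt
RPL22 (before CHD5), chr1:6185037-6185066, minus strand: atcatattttctATTAAAgtggctaacacc
RABGGTB (before MSH4), chr1:75795046-75795075, plus strand: aatgatgcacaaAATAAAtggctgttgaaa
ADORA2A, chr22:24442308-24442337, plus strand: tgagataaAATAAAaacgagccacatcgtg

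BAAT, the liver enzyme that joins bile acids to glycine or taurine, had the largest SFN level of the 8. It lies at chr9:101354182-101385400 on the minus strand, 2232 bases beyond MRPL50, which encodes a subunit of the mitochondrial ribosome. BAAT had 0, 1, 0, 2 and 1 counts in DMSO replicates 1 to 5 and 55, 33, 26, 44 and 38 counts in SFN replicates 1 to 5. Every SFN library was above every DMSO library, and 2 DMSO libraries held no read. The mean level was 0.0450 ± 0.0499 CPM in DMSO and 2.74 ± 0.501 CPM in SFN (SD, n = 5), and the fitted log2 fold change was 5.71 (SE 0.45). The ratio of summed, depth-corrected counts was 61.9, with a 95% counting interval of 23.8 to 229. This interval and those below cover counting error only.

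Within BAAT lies FYTTD1P1, a processed pseudogene of 1260 bases on the same strand. It had no count in any DMSO library and 5, 3, 5, 4 and 6 counts in the SFN libraries. It is a copy of a spliced transcript, so its reads may be shared with its parent gene and are uncertain.

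ADORA2A, the G protein-coupled receptor through which adenosine raises cyclic AMP, lies at chr22:24417879-24442357 on the plus strand. The gene before it is SPECC1L, a cytoskeletal crosslinker. ADORA2A had 0, 2, 0, 2 and 0 counts in DMSO and 23, 10, 23, 23 and 39 counts in SFN. The groups did not overlap, and SFN replicate 5 was the highest of the SFN libraries. The level was 0.0423 ± 0.0589 CPM in DMSO and 1.65 ± 0.695 CPM in SFN, with a ratio of 37.3 (counting interval 14.2 to 139) and a log2 fold change of 4.99 (SE 0.61). The annotation also holds a joint transcript of the pair, SPECC1L-ADORA2A, which overlaps 24478 bases of ADORA2A and was counted as a gene of its own. That gene had 0 counts over the DMSO libraries and 2 over the SFN libraries. A read that fits both genes may have been left uncounted or assigned to either.

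WNT2B, a secreted ligand of the Wnt pathway, lies at chr1:112466541-112530165 on the plus strand, 3084 bases beyond CTTNBP2NL, whose product associates with the STRIPAK phosphatase complex. It had 0, 8, 5, 5 and 3 counts in DMSO and 16, 29, 21, 22 and 30 counts in SFN. Low but repeated reads in 4 of 5 DMSO libraries set it apart from BAAT and ADORA2A, and the groups again did not overlap. The level was 0.225 ± 0.142 CPM in DMSO and 1.72 ± 0.599 CPM in SFN, with a ratio of 7.10 (counting interval 4.44 to 11.9) and a log2 fold change of 2.84 (SE 0.48). The last part of WNT2B is overlapped over 6652 bases by ST7L on the opposite strand, which rose in SFN by a log2 fold change of 0.53 (SE 0.11, adjusted p = 0.0062 in edgeR). Whether counting used strand is not stated, and reads of the 2 genes could then not be told apart.

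CSPG5 (neuroglycan C), a chondroitin sulphate proteoglycan of neural tissue, lies at chr3:47562238-47580792 on the minus strand, 4476 bases beyond SMARCC1, a core subunit of the SWI/SNF remodelling complex. It had 34, 20, 13, 7 and 13 counts in DMSO and 31, 37, 36, 31 and 27 counts in SFN. Here the groups overlapped, since DMSO replicate 1 (2.12 CPM) lay within the SFN range of 1.85 to 3.19 CPM. With 0.989 ± 0.655 CPM in DMSO and 2.34 ± 0.577 CPM in SFN, CSPG5 was not near zero in DMSO. The ratio was 2.35 (counting interval 1.80 to 3.09) and the log2 fold change 1.24 (SE 0.38), or 1.68 without DMSO replicate 1.

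DNAH10, an inner-arm dynein heavy chain of motile cilia, lies at chr12:123762188-123935720 on the plus strand, 432 bases beyond ATP6V0A2, a membrane subunit of the vacuolar proton pump. It had 0, 0, 2, 0 and 1 counts in DMSO and 17, 13, 10, 11 and 24 counts in SFN. All SFN libraries were above all DMSO libraries, although the level reached only 1.06 ± 0.390 CPM in SFN against 0.0342 ± 0.0504 CPM in DMSO. The ratio was 31.6, and with 3 counts in all of DMSO its counting interval ran from 10.4 to 157. The log2 fold change was 4.69 (SE 0.62). On the opposite strand, CCDC92 overlaps DNAH10 over 17061 bases and DNAH10OS over 9524 bases. Neither passed the test, with log2 fold changes of 0.14 (adjusted p = 0.665 in edgeR) and 0.52 (adjusted p = 0.238).

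CHD5, a chromatin remodeller of neurons and testis that is often lost in neuroblastoma, lies at chr1:6101787-6180321 on the minus strand behind RPL22, a ribosomal protein gene. It had 1, 5, 10, 1 and 8 counts in DMSO and 25, 10, 13, 24 and 24 counts in SFN. In raw counts, SFN replicate 2 equalled the highest DMSO library, and only after scaling for depth did every SFN library (from 0.863 CPM) exceed every DMSO library (up to 0.559 CPM). The level was 0.277 ± 0.231 CPM in DMSO and 1.33 ± 0.385 CPM in SFN, with a ratio of 4.85 (counting interval 3.10 to 7.86) and a log2 fold change of 2.23 (SE 0.49). AL031847.2 on the same strand, at chr1:6159430-6197757, overlaps CHD5 over 20892 bases and reaches across the gap into RPL22. It was counted as a gene of its own and had 2 counts in each group. A read that fits it and CHD5 may have been left uncounted or assigned to either.

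MSH4, which with MSH5 stabilizes crossover intermediates in meiosis, lies at chr1:75796882-75913242 on the plus strand, 1795 bases beyond RABGGTB, a subunit of the enzyme that attaches geranylgeranyl groups to Rab proteins. It had 0, 2, 4, 0 and 3 counts in DMSO and 26, 17, 22, 16 and 23 counts in SFN. The groups were far apart and the SFN libraries close together, at 1.47 ± 0.230 CPM against 0.0985 ± 0.102 CPM in DMSO. The ratio was 14.6 (counting interval 7.40 to 32.8) and the log2 fold change 3.77 (SE 0.51).

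LRRC66, a leucine-rich repeat membrane protein, lies at chr4:51993652-52020363 on the minus strand, 342 bases beyond SGCB (beta-sarcoglycan). It had 14, 18, 5, 9 and 5 counts in DMSO and 32, 18, 14, 20 and 36 counts in SFN. Raw counts overlapped, but in CPM the lowest SFN library (1.04) was above the highest DMSO library (0.872). At 0.562 ± 0.280 CPM in DMSO, LRRC66 was read in every control library and was not near zero. It was at 1.68 ± 0.576 CPM in SFN, a ratio of 2.97 (counting interval 2.12 to 4.21) and a log2 fold change of 1.56 (SE 0.37).

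Over the 8 genes, the SFN levels covered a narrow range of 1.06 to 2.74 CPM, while the ratios ranged from 2.35 to 61.9 with the DMSO level. The groups did not overlap in CPM in 7 of 8, where 8.78% of all genes tested had every SFN library above every DMSO library, and nothing is read from this, since the choice used the contrast. All 8 passed the low-count filter through the SFN libraries, all 5 of which reached its limit of 0.637 CPM for every member. In DMSO 6 members reached it in no library, LRRC66 in 2 and CSPG5 in 4. Without DMSO replicate 1 the log2 fold changes were 5.46 for BAAT, 4.74 for ADORA2A, 4.45 for DNAH10, 1.999 for CHD5, 3.50 for MSH4, 2.54 for WNT2B and 1.74 for LRRC66. CSPG5 had the highest DMSO level and the smallest ratio of the 8.

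The change of the neighbours was not used in the choice and was tested. None of the 8 neighbours changed significantly in edgeR's quasi-likelihood test, none had an unadjusted p under 0.05, and none was called by DESeq2 or limma-voom. Their levels lay between 29.98 and 319 CPM in DMSO, far above those of the members, and their DMSO and SFN ranges overlapped in all 8 cases. MRPL50 was at 44.4 ± 11.4 CPM in DMSO and 53.3 ± 5.89 CPM in SFN (log2 fold change 0.26, SE 0.17, adjusted p = 0.305). SPECC1L, next to ADORA2A, was at 29.98 ± 3.70 and 28.5 ± 4.04 CPM (-0.07, SE 0.13, adjusted p = 0.755). ATP6V0A2, RPL22 and RABGGTB had log2 fold changes of 0.15, 0.16 and 0.17 with adjusted p of 0.497, 0.550 and 0.591. The most highly expressed neighbours point in opposite directions, at values that did not pass the test. SGCB was at 140 ± 10.5 CPM in DMSO and 150 ± 13.6 CPM in SFN (0.10, SE 0.10, adjusted p = 0.553). SMARCC1 was at 319 ± 107 and 251 ± 28.5 CPM (-0.35, SE 0.19, adjusted p = 0.222), and CTTNBP2NL at 41.7 ± 9.29 and 32.8 ± 9.20 CPM (-0.35, SE 0.21, adjusted p = 0.280). A p above the threshold does not show that these genes did not change.

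The count of 0 depended on DMSO replicate 1. Without it, MRPL50 (log2 fold change 0.41, adjusted p = 0.0113 in edgeR), RPL22 (0.33, adjusted p = 0.0143) and RABGGTB (0.38, adjusted p = 0.018) increased and CTTNBP2NL (-0.48, adjusted p = 0.0201) decreased. These changes were of less than 0.5 on the log2 scale, while the genes behind these 4 neighbours had values of 5.46, 1.999, 3.50 and 2.54 in the same fit. Over all genes, the calls without this library were 3058 increased and 3193 decreased, against 1214 and 1862 with it. More calls were therefore made over the whole table in this fit, and nothing particular to the neighbours is read from theirs.

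Because a level behind a gene might follow that gene's level, the members' reads were also expressed per 1000 reads of the neighbour in the same library. BAAT had 1.03 reads per 1000 MRPL50 reads in DMSO (highest library 2.62) and 51.8 in SFN (37.04 to 60.8). ADORA2A had 1.32 per 1000 SPECC1L reads in DMSO (highest 3.78) and 59.8 in SFN (29.2 to 110). WNT2B had 4.92 per 1000 CTTNBP2NL reads in DMSO (highest 7.66) and 55.9 in SFN (30.9 to 104). These 3 genes had the most reads relative to the neighbour in SFN, and the other 5 had fewer. CHD5 went from 5.35 to 21.7 per 1000 RPL22 reads, DNAH10 from 0.580 to 17.0 per 1000 ATP6V0A2 reads and MSH4 from 1.28 to 15.4 per 1000 RABGGTB reads. LRRC66 went from 4.03 to 11.1 per 1000 SGCB reads, and CSPG5 from 2.92 (highest 4.15) to 9.52 (lowest 6.33) per 1000 SMARCC1 reads. For CSPG5 the DMSO and SFN libraries separated on this scale and not in CPM, and DMSO replicate 1, which overlapped in CPM, had the highest SMARCC1 level of all libraries (509.7 CPM). These ratios use the counts by which the members were chosen and are a description. 

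The next genes beyond the members were given as values. UPB1, which lies 51.7 kb past ADORA2A on the same strand, had 0 counts in DMSO and 1 in SFN, and AC092813.1, which lies 13.2 kb past MSH4, had 0 and 4. Both were at the detection limit in both groups. Of the next same-strand genes that were tested, NPHP4 past CHD5, ZNF664 past DNAH10, ELP6 past CSPG5, CAPZA1 past WNT2B and TEX10 past BAAT had log2 fold changes from -0.08 to 0.34, with adjusted p by edgeR from 0.140 to 0.959. On the opposite strand, 5 next genes were tested. KCNAB2, which ends 0.593 kb beyond CHD5, had 58 and 61 counts (log2 fold change 0.41, adjusted p = 0.380 in edgeR), and GUCD1 past ADORA2A and PIGK past MSH4 had 0.35 and 0.25 (adjusted p = 0.107 and 0.0953). CAVIN4, which lies 765.8 kb past BAAT, rose (0.92, SE 0.28, adjusted p = 0.0333) and PTPN23, which lies 148.8 kb past CSPG5, fell by 0.97 on the log2 scale (SE 0.30, adjusted p = 0.0379). The groups of both genes overlapped, and the calls were lost under 8 and 10 of 16 alternatives, with adjusted p up to 0.0832 and 0.162, most of them fits with 1 library left out.

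The 8 genes were set against the silent genes of the table, those with a mean under 1 CPM in DMSO. There were 15620 of them with the 8 included, of which 426 (2.73%) had every SFN library above every DMSO library. Besides the members, 807 began within 5 kb behind an expressed gene on the same strand, and 90 of these (11.2%, exact 95% interval 9.06 to 13.5) had every SFN library above every DMSO library, while 5 (0.620%) had the reverse. Among the 1922 that began inside an expressed gene on the same strand, the share was 1.93%, and among 344 within 5 kb past an end on the opposite strand it was 5.81%. Among the remaining 12539 it was 2.17% (1.92 to 2.44), with 0.829% in the reverse direction. All 8 members are protein-coding, and among protein-coding genes alone, a setting chosen after seeing the data, the share was 18.4% of 310 behind an expressed gene and 3.66% of the 3663 remaining ones. These shares are descriptions with counting intervals over genes, which are not independent, and a low DMSO level favours higher SFN values in every class. UNC13D, which primes secretory granules in cytotoxic lymphocytes, had the largest gain in mean CPM among the 90, from 0.358 to 5.55 CPM. It lies 913 bases behind WBP2, which itself rose (log2 fold change 0.76, adjusted p = 7.3e-04 in edgeR). ADSSL1, a muscle adenylosuccinate synthase 1638 bases behind INF2, was at 0.326 CPM in DMSO and 5.16 CPM in SFN, where INF2 did not pass the test (-0.30, adjusted p = 0.122).

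The share was lower at larger distances, counted here without genes that also begin inside another expressed gene. It was 13.9% of 180 silent genes at 0 to 1 kb, with none in the reverse direction, 10.4% of 615 at 1 to 5 kb and 9.89% of 526 at 5 to 10 kb. It was 4.55% of 2090 at 10 to 50 kb and 1.43% of 10153 beyond 50 kb, where 0.886% had the reverse. The first 3 intervals overlap, so the order among them is within counting error. The expressed genes before the 90 were 89 in number, of which 14 (15.7%) were increased and 11 (12.4%) decreased, beside 7.16% and 13.0% of the 684 before the other 717.

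**Figure D1:**
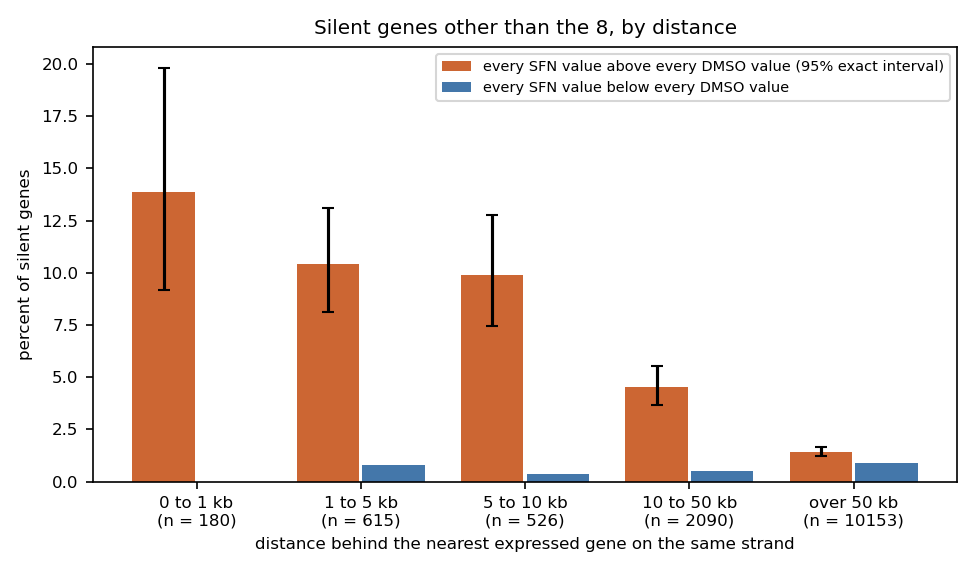
Percent of silent genes, without the 8, with every SFN library above (orange, exact 95% interval) or below (blue) every DMSO library, by distance in kb behind the nearest expressed gene on the same strand, without genes that also begin inside one. The orange bars go from 13.9% at 0 to 1 kb to 1.43% beyond 50 kb.

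Summed over the 807 silent genes behind an expressed gene, the level was 133 to 167 CPM in the DMSO libraries and 266 to 346 CPM in the SFN libraries, a ratio of 2.04 between the means. The highest DMSO library was replicate 1, and it was still below the lowest SFN library. For silent genes inside an expressed gene the ratio was 1.18, on the opposite strand 1.47 and for the remaining ones 1.22. In those 3 classes DMSO replicate 1 lay within the range of the SFN libraries. Without it, DMSO and SFN separated in these classes too, at 207 to 220 against 259 to 299 CPM inside, 42.6 to 59.4 against 66.8 to 148.6 CPM on the opposite strand and 1402 to 1526 against 1813 to 2257 CPM for the remaining ones. The opposite-strand sum in SFN was 66.8 to 71.3 CPM except in replicate 2, which had 148.6 CPM.

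**Figure D2:**
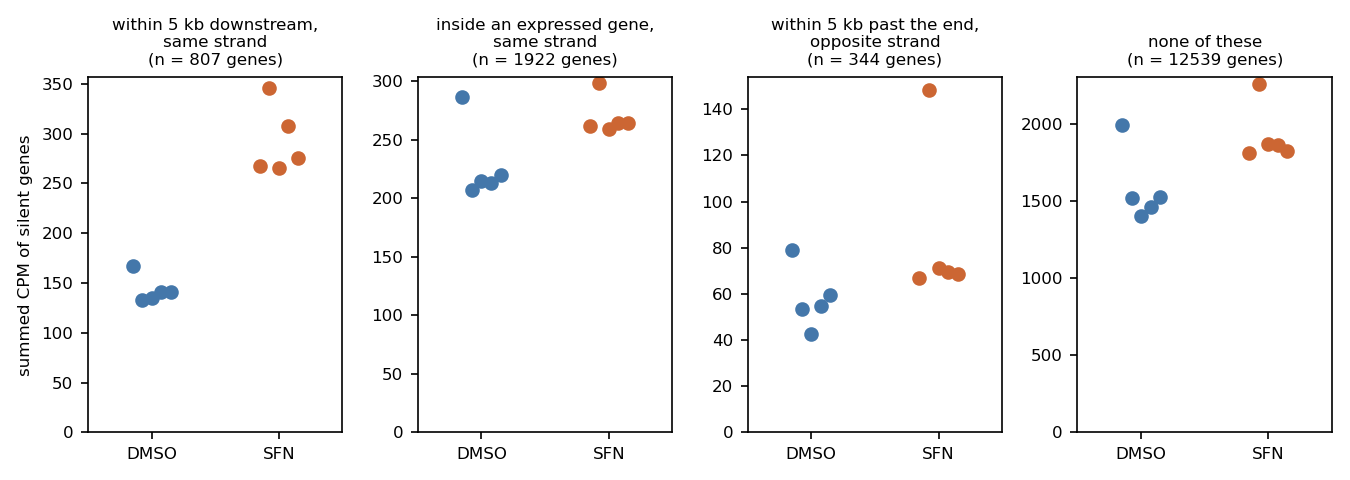
Summed CPM of silent genes (the 8 left out) in each library, by position relative to expressed genes, on axes that start at 0. All DMSO points lie below all SFN points in the class within 5 kb downstream on the same strand (133 to 167 against 266 to 346 CPM), and in the other 3 classes DMSO replicate 1 lies among the SFN points.

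The factors that cut, polyadenylate and release transcripts were measured in the same libraries. Of 51 listed, 49 were tested, and 7 were increased and 2 decreased, where 9.07% and 13.9% of all genes tested were called. At an unadjusted p under 0.05 the numbers were 12 and 4, and the share over all genes at that threshold is not given here. Without DMSO replicate 1 the calls were 12 up and 7 down. Over all genes the calls then rose to 3058 and 3193, from 1214 and 1862 with all libraries. Their log2 fold changes had a median of 0.08, against -0.03 over all genes tested. PCF11, which couples cleavage to the release of the polymerase, rose from 75.6 ± 9.38 to 256 ± 38.2 CPM (log2 fold change 1.76, SE 0.13, adjusted p = 4.1e-06 in edgeR). PPP1R10 (PNUTS), the subunit that brings protein phosphatase 1 to the elongating polymerase, rose from 45.3 ± 10.8 to 120 ± 10.7 CPM (1.41, SE 0.17, adjusted p = 1.3e-04). Neither gene had overlapping groups. The Integrator subunits, which end short and snRNA transcripts, went both ways, as INTS2 rose (0.84, SE 0.19, adjusted p = 0.0073) and INTS5 fell by 1.06 on the log2 scale (SE 0.14, adjusted p = 1.9e-04). XRN2, the release exonuclease, did not pass the test, at 278 ± 23.7 CPM in DMSO and 238 ± 24.6 CPM in SFN (-0.22, SE 0.11, adjusted p = 0.170). What these levels have to do with the members was not tested.

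Genes that share a tissue programme or family with a member were listed to see what else of that programme was read. Over the 7 lists 38 genes were tested, of which 1 was increased and 7 decreased, or 3 and 10 without DMSO replicate 1. With all libraries, 9.07% and 13.9% of all genes tested were called (1214 and 1862 genes). Without DMSO replicate 1 the calls over all genes were 3058 and 3193. Nothing particular to the lists is read from the counts. Of 11 bile acid and hepatocyte genes in the table, 7 were under 1 CPM in DMSO and none of the 4 tested was called, with 1 at an unadjusted p under 0.05. SLC27A5, which acts just before BAAT in bile acid conjugation, was at 2.92 ± 2.07 CPM in DMSO and 2.58 ± 1.27 CPM in SFN (-0.18, adjusted p = 0.817 by edgeR). CYP7A1, the rate-limiting enzyme of bile acid synthesis, had 0 counts in DMSO and 4 in SFN.

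Of 17 axonemal genes, 14 were under 1 CPM in DMSO, and none of the 5 tested was called or had an unadjusted p under 0.05. The cilium regulator FOXJ1 had 0 and 2 counts and the dynein DNAH2 1 and 0. Of the other dynein heavy chains too low for a test, DNAH12 had 5 counts in DMSO and 24 in SFN, DNAH6 3 and 10, DNAH11 18 and 18, DNAH8 1 and 0 and DNAH17 1 and 2, with overlapping groups in each. The summed level of the axonemal genes was 20.96 to 24.4 CPM in DMSO and 18.8 to 23.5 CPM in SFN. Of 11 meiotic genes, 6 were tested and 2 decreased, MLH3 by 1.24 (SE 0.18, adjusted p = 4.8e-04 by edgeR) and SYCP2 by 0.46 on the log2 scale (adjusted p = 0.0445, lost under 12 of 16 alternatives with adjusted p up to 0.238). MSH5, the partner of MSH4, was at 1.85 ± 0.580 and 1.66 ± 0.290 CPM (-0.17, adjusted p = 0.706). MLH3 acts in crossover formation.

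The other families are given by the same rule. Among the 8 CHD remodellers other than CHD5, CHD7 fell from 34.0 ± 4.14 to 6.56 ± 1.83 CPM (log2 fold change -2.36, SE 0.19, adjusted p = 6.2e-06 by edgeR), CHD9 (-0.84, adjusted p = 9.4e-04) and CHD1 (-0.61, adjusted p = 0.0035) also decreased, and CHD2 increased (0.63, adjusted p = 0.0072). CHD4, the core of the NuRD remodelling complex, was at 12.1 ± 7.81 and 8.37 ± 2.32 CPM (-0.53, adjusted p = 0.312). ADORA1, the inhibitory adenosine receptor, decreased from 8.10 ± 1.504 to 4.36 ± 0.862 CPM (-0.89, adjusted p = 0.0039), and ADORA2B, the other stimulatory receptor, had -0.25 (adjusted p = 0.497). Of 5 WNT ligands tested, WNT9A decreased (-2.15, SE 0.50, adjusted p = 0.0091). None of the 5 neural genes tested was called or had an unadjusted p under 0.05, among them VCAN, a proteoglycan like CSPG5 (-0.40, adjusted p = 0.262). DESeq2 called 2 increased genes over these lists, as did the fit without a low-count filter, and leaving out SFN replicate 1 gave 3.

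Promoters of the members were taken from RefSeq (GRCh38.p14), which gave 10 promoter windows for 6 members. The core of the antioxidant response element, TGACNNNGC, through which NRF2 acts, was sought on both strands and was found in 1 window each of BAAT, MSH4 and WNT2B, beside 13.3% of all 35116 windows. The heat shock element pair GAANNTTC was found in none of the 10, beside 6.77% of all. The windows of BAAT and MSH4 are shown with the match in capitals, as the members with a match that had the largest and the least variable SFN levels. A match is a description of letters and not a binding site.
BAAT, chr9:101383515-101383814, minus strand: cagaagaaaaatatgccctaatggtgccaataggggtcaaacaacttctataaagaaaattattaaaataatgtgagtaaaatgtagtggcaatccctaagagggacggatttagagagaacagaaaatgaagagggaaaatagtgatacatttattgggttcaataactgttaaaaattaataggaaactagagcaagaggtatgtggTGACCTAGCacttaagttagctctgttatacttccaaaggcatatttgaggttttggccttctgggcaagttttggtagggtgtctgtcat
MSH4, chr1:75796632-75796931, plus strand: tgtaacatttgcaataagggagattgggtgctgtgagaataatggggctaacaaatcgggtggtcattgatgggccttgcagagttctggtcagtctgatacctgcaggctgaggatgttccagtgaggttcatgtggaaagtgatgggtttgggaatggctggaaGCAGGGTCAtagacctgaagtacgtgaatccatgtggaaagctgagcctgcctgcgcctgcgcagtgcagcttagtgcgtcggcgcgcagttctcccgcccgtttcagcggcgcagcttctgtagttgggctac

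Oligo(dT) can also prime on runs of A inside a transcript. Runs of at least 10 A on the sense strand were found in the exons of 1 of 8 members, WNT2B, with 4 runs of up to 21 bases, beside 23.0% of silent protein-coding genes. The gaps before CHD5, WNT2B and CSPG5 held 1, 1 and 2 such runs and the other 5 gaps none.

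The genes whose standardized log2 CPM profile over the 10 libraries was most like the mean profile of the 8 were HSPH1, DNASE1, LOC100506544, DNAJB11 and ALPK3, with root mean square differences of 0.111 to 0.129, as a description over libraries that share the treatment. HSPH1, a chaperone of the HSP110 family that lies 1270 kb behind N4BP2L2, went from 424 ± 8.82 to 1638 ± 128 CPM. DNAJB11, which lies 934 kb behind SENP2, went from 124 ± 6.72 to 215 ± 5.10 CPM. DNASE1, which lies 72.7 kb behind CLUAP1, went from 7.27 ± 0.621 to 17.7 ± 1.76 CPM. LOC100506544, a long noncoding RNA 16.3 kb behind RANGAP1, had 0 counts in each DMSO library and 15, 12, 10, 12 and 16 counts in SFN, and ALPK3, a muscle kinase gene 10.9 kb behind ZNF592, had 2 and 103 counts over the groups. Against the same mean profile, the members themselves had differences from 0.205 for DNAH10 to 0.621 for CSPG5.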

How the data were processed

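RNA from 10 samples of RPE-1 cells was sequenced by the authors as Lexogen QuantSeq libraries and processed with the Bluebee pipeline. The submitters' processing notes name FastQC, STAR, featureCounts and edgeR with the builds hg38 and GRCh38, and the use of strand and of molecular identifiers is not given in the sources used here. What the authors deposited is 1 table of raw counts, by Ensembl gene and library, with no normalization. The members and gene lists were chosen with earlier results of these data known.

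Genes were filtered with filterByExpr, scaled by TMM and tested with edgeR 4.0.16 (glmQLFit, glmQLFTest, Benjamini-Hochberg) in R 4.3.3 over all 13378 genes that passed. Standard errors were derived from the fold change and its F statistic. DESeq2 1.42.0, limma-voom (limma 3.58.1) on quantile normalized values, other scalings, no filter, a replicate block and leaving out each replicate were alternatives. Defining silent genes by the mean over all libraries, and protein-coding genes alone, were chosen after seeing the data. The genes named by rule are the members, their upstream neighbours, genes between and next to them, the 4 largest called changes and the nearest partner in each list, the 5 silent genes with the largest gain and the 5 most alike profiles. Others are named outside this rule, among them retinal pigment epithelium markers and list genes too low for a test. SYCP3, HORMAD1, STAG3 and HFM1 were chosen after their values were seen. The upstream neighbour is the nearest gene of at least 10 CPM in DMSO that ends before the member on its strand, in GENCODE 44, which held 28145 of 28380 identifiers. Ratios have exact conditional binomial intervals and shares Clopper-Pearson intervals. The chi-square per degree of freedom between replicates was 3.50 to 243, so none were copies of one library. This does not show that the replicates were separate cultures. On simulated counts of 13217 genes, edgeR recovered 60 of 83 genes changed by a log2 fold of 1 and 103 of 107 changed by 2, with 9 false calls. Sequences were read with pysam 0.24.0.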

Additional observations from a re-analysis of the deposited data

Results flagged for a closer look

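In groups of 5 libraries, a highest or lowest value was noted where its gap to the nearest other was over 0.71 of the range. This is Dixon's limit, which chance gives in about 1 of 20 groups. The sums of silent genes inside an expressed gene and on the opposite strand were not examined, and their values are given below. Of 56 groups examined, 14 met the limit, and in 10 of them the library was DMSO replicate 1. Its CPM stood apart for SPECC1L (23.4), ATP6V0A2 (37.99), RPL22 (83.0), RABGGTB (135.7), CTTNBP2NL (25.3), SMARCC1 (509.7) and, among the 8 genes, CSPG5 (2.12). It also stood apart in its TMM factor (0.886) and in the summed CPM of silent genes behind an expressed gene (166.9) and of those in no position class (1994). For silent genes inside an expressed gene, a sum not examined, it had 286 CPM and the other DMSO libraries 207 to 220 CPM.

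SFN replicate 5 stood apart for CTTNBP2NL (48.4 CPM) and SMARCC1 (301.4 CPM). SFN replicate 2 stood apart in WNT2B reads per 1000 CTTNBP2NL reads (104.3), where CTTNBP2NL had its lowest SFN level, and in the summed CPM of silent genes in no position class (2257). In the sums not examined, SFN replicate 2 had 148.6 CPM on the opposite strand, where the other SFN libraries had 66.8 to 71.3 CPM. Inside an expressed gene it had 299 CPM and the other SFN libraries 259 to 265 CPM.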

How the results depend on the processing

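The log2 fold changes of the 8 genes kept their sign under all 16 alternatives, from 5.17 to 6.29 for BAAT, 3.76 to 5.61 for DNAH10 and 1.05 to 1.68 for CSPG5. A fold from a handful of DMSO reads depends on the scale and the test, and depth limits all 8. Leaving out replicates, genes increased ranged from 906 to 3058 and decreased from 1470 to 3193, neighbours increased from 0 to 3 and decreased from 0 to 1, 3′ end factors increased from 5 to 12 and decreased from 2 to 7, and partner genes increased from 1 to 3. Each highest value arose without DMSO replicate 1, and that of the partner genes also without SFN replicate 1. The increased 3′ end factors were 4 with library size alone, the decreased ones 4 by DESeq2, and the increased partner genes 2 with no low-count filter and 2 by DESeq2. Of 18 other genes named as changed, 15 kept their call under all 16 alternatives, and SYCP2, PTPN23 and CAVIN4 lost it under 12, 10 and 8. SGCB turned to -0.0017 by limma-voom. With a replicate block, 911 genes increased and 1530 decreased, and 0 neighbours were called. Same-numbered libraries had correlations of -0.327 to 0.555 in their deviations and 1 of 5 fitted its own number best. DMSO replicates 2, 3, 4 and 5 all fitted SFN replicate 5 best (0.416, 0.422, 0.575 and 0.555). With such a shared pattern, this check cannot tell whether the number pairs the libraries.

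The share of silent genes behind an expressed gene was 13.7% within 1 kb, 6.59% within 50 kb, 8.93% for genes under 0.3 CPM, 7.92% by the mean over all libraries and 18.4% for protein-coding genes, and 11.5% to 13.6% without single replicates. For the remaining silent genes the same settings gave 2.62%, 1.31%, 2.02%, 1.84% and 3.66%, with 1.89% at 10 kb, 2.46% for neighbours of 50 CPM and 2.38% to 2.92% without single replicates, where fewer libraries alone make non-overlap easier. The cause of these shifts was not tested.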

Other observations

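Among genes of the meiotic list that had too few reads for a test, SYCP3, a protein of the synaptonemal complex axis, had 20 counts over the DMSO libraries and 76 over the SFN libraries, with every SFN library above every DMSO library in CPM. HORMAD1 had 0 and 7 counts, STAG3 7 and 25, and HFM1 18 and 1. These 4 were chosen after their values were seen.

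Of the other silent genes with large gains, AC097534.1, a long noncoding RNA that starts 1681 bases behind HMGB2, was at 0.767 CPM in DMSO and 5.42 CPM in SFN. AOC2, an amine oxidase gene 819 bases behind PSME3, was at 0.412 and 3.08 CPM. ASIC3, an acid-sensing ion channel gene 509 bases behind ABCB8, was at 0.286 and 2.94 CPM. HMGB2, PSME3 and ABCB8 had log2 fold changes of 0.28, 0.02 and 0.21 (edgeR adjusted p of 0.473, 0.945 and 0.344).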
